A study of Rattus norvegicus and Homo sapiens with 12 samples.

Results

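The genes described here are 50 interferon-inducible genes, chosen by name as well known targets of interferon signaling and measured in DU145, a human prostate cancer cell line. They were matched by Ensembl identifier, and all 50 were found among the 60107 genes of the human table. They were grouped by function into sensors of nucleic acids (10 genes), antiviral effectors (16), genes of ISG15 conjugation, ubiquitin ligation and ADP-ribosylation (12), transcription factors (2), nuclear body proteins (3) and other interferon-inducible genes (7). The rule for the list uses gene names and no measured value, although it was drawn up with earlier results of these data known.

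Interferons are secreted proteins through which cells warn each other of infection. Type I interferons and the lambda interferons, of which IL-28 is one, bind different receptors but pass the signal through the kinases JAK1 and TYK2 to a complex of STAT proteins and IRF9, which enters the nucleus and raises the genes of this list. Many of these genes are also held at a low constant level without added interferon, and some of their products, such as PKR, the OAS enzymes and XAF1, are known to act in cell death. The study compared cells before and after selection by a medium that contains IL-28. The genes of this list are known targets of its pathway, but whether their level at rest reports the activity of that pathway was not tested.

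Parental DU145 (F0) and MSC-selected DU145 (F2) were profiled with QuantSeq, a method that counts 3′ ends of mRNA, in 3 libraries each. F2 is the population that outlived repeated culture in conditioned medium (CM) of purchased human mesenchymal stem cells (MSCs). The sample labels give 2 rounds of 72 h and the description of the series adds a further round, after which the cells were recovered, so RNA of both populations came from cells that were not being treated as far as the labels say. Both populations were grown in DMEM with serum and carry no engineered allele that the labels name. DU145 is an established line, and the samples are called biological replicates without a statement of whether the 3 F2 samples came from separate selections, so the n, SD and p given here describe samples and may not describe independent selections. QuantSeq reads 1 fragment near the poly(A) tail of each transcript, and its counts were therefore not divided by transcript length. Levels are given in CPM, the counts of each library brought to a common total after TMM scaling.

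Counts assigned to genes ranged from 16029876 to 16479239 per library in F0 and from 15879480 to 16217918 in F2. All 5 epithelial markers were at or above 1 CPM (summed level 1025 to 1097 CPM in F0 and 1325 to 1334 in F2). They did not move alike. KRT8, KRT18, KRT19 and EPCAM had higher means in F2, while CDH1 went from 14.0 ± 1.79 CPM in F0 to 5.78 ± 0.0915 in F2 (SD, n = 3 each). Of 4 luminal genes of the prostate, 3 had at most 3 counts in every library, KLK2 among them with 0. Of 14 MSC or stromal markers, 10 had at most 3 counts in every library and THY1, CXCL12, POSTN, LUM and SPARC had 0. The summed level of the 14 was 153 to 173 CPM in F0 and 220 to 237 in F2, nearly all of it from NT5E, a surface enzyme that many carcinoma lines also express (158 ± 9.49 CPM in F0 and 222 ± 10.3 in F2, SD, n = 3 each). Of 6 leukocyte markers, 5 had at most 3 counts in every library. Mitochondrially encoded genes took 5.86% ± 0.145 of the counts of an F0 library and 10.4% ± 0.201 of an F2 library, and leaving them out changed none of the counts of called interferon-inducible genes below. In bulk RNA, fewer cells that express a gene and less of its RNA per cell cannot be told apart.

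DU145 expressed many interferon-inducible genes at a low level and left others undetected. The filter on low counts left 35 of the 50 genes for testing. Their median level was 8.77 CPM over the 6 libraries, against 17.4 CPM for all 14316 tested genes. Only EIF2AK2 and TRIM25 lay above 100 CPM, 11 genes lay between 10 and 100 CPM and 21 between 1 and 10 CPM. The remaining 16 lay at or below 1 CPM, and 5 of them, IFITM1, RSAD2, BST2, TRIM22 and XAF1, had 0 counts in all 6 libraries. A gene with 0 counts may still be present below the level of 3 counts per library that such a result allows.

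The summed level of all 50 genes was 571, 566 and 570 CPM in the F0 libraries and 551, 556 and 557 CPM in the F2 libraries. The F2 sums all lay below the F0 sums, but the means, 569 ± 2.63 and 555 ± 3.21 CPM (SD, n = 3 each), were close. The sum is carried by the few genes of high level. Group sums moved in different directions, and the antiviral effectors went from 71.2 to 78.5 CPM in F0 to 59.2 to 62.5 CPM in F2, while the nuclear body genes went from 55.8 to 63.0 CPM in F0 to 69.3 to 73.0 CPM in F2. The sums of the other interferon-inducible genes also did not overlap, at 28.3 to 30.7 CPM in F0 and 32.4 to 36.8 CPM in F2, and those of the ISG15 group were only just apart, at 235.2 to 242.4 and 227.3 to 235.1 CPM. The sums of the sensors and of the transcription factors overlapped.

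F2 was compared with F0 by edgeR's quasi-likelihood test across all genes, with Benjamini-Hochberg adjustment and a threshold of 0.05. Of the 35 tested interferon-inducible genes, 7 passed it. OASL, DDX60, IFIT1, IFITM2 and HERC5 fell, and IFI16 and SP100 rose. The share past the threshold was 20%, near the 18.2% of all tested genes. The 5 falls were 14.3% of the tested genes of the list, where 8.67% of all genes fell, and the 2 rises were 5.71%, where 9.49% of all genes rose. The median log2 fold change of the 35 genes was -0.037, against -0.0025 over all tested genes, with 22 of the 35 lower and 13 higher. IFI16 was the 1 gene past the threshold at 2-fold or more, a mark that 1.67% of all genes reached. It entered the test only through the F2 libraries, where it is higher, so this count and 1 of the 2 rises give no support to a difference. At an unadjusted p under 0.05 there were 10 of the 35 genes, where 30.7% of all genes passed that mark. F0 and F2 did not overlap for 9 of the 35 genes, with F2 below F0 for 7 and above for 2, and the shares over all genes were 34%, 17.1% and 16.9%. Scaling by library size alone, under which the median of all genes was -0.092, shifted the split of all calls from 1358 higher and 1241 lower to 832 higher and 2805 lower, and that of the list to 2 higher and 7 lower.

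**Figure D1:**
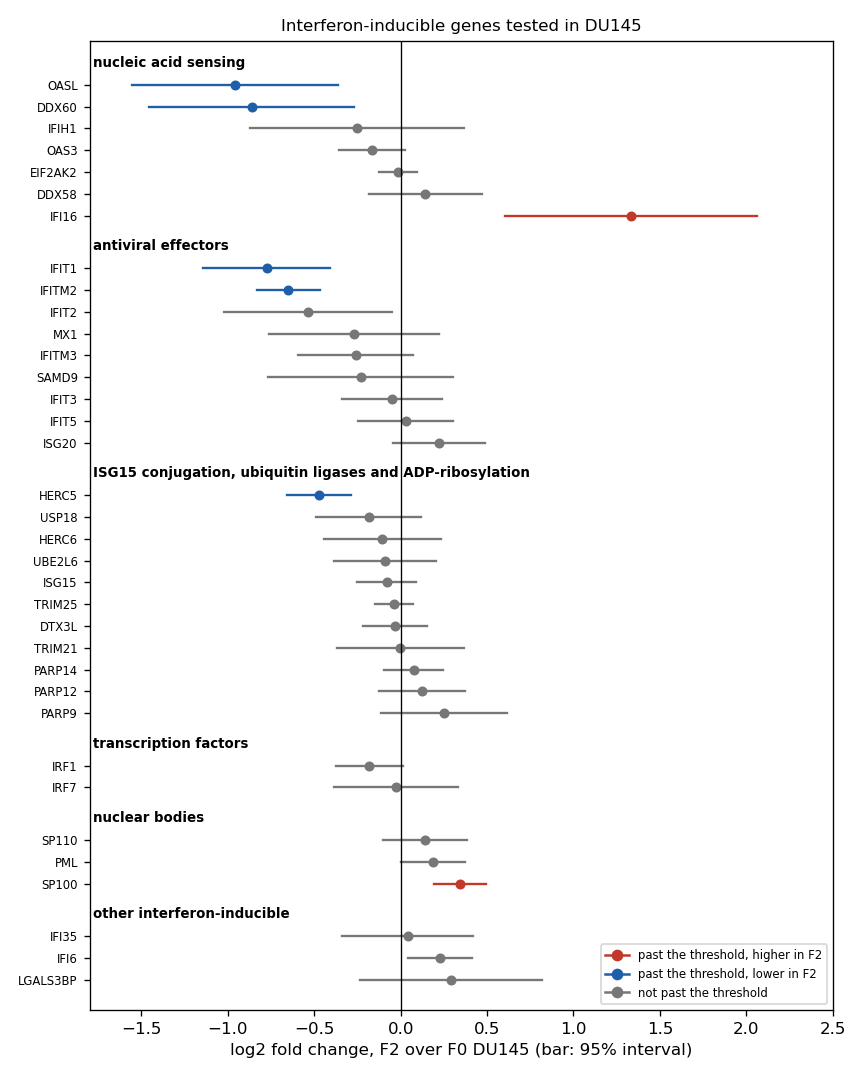
Log2 fold change of F2 over F0 for the 35 tested interferon-inducible genes by functional group, from edgeR. Points are fitted values, bars are 95% intervals, and colors mark genes past the threshold. Most intervals include 0, OASL lies lowest at -0.96 and IFI16 highest at 1.33.

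The sensors of nucleic acids held the largest falls and the largest rise among the 35 tested genes of the list. Of 10 genes 7 were tested, 2 fell, 1 rose and 4 did not pass the threshold. OASL encodes a relative of the OAS enzymes that lacks their activity and aids signaling by the RNA sensor RIG-I (ENSG00000135114, chromosome 12, 121019111 to 121039242 in GRCh38, minus strand). Its level was 2.18, 1.70 and 2.25 CPM in F0 and 0.959, 0.909 and 1.28 CPM in F2. All F2 libraries lay below all F0 libraries, and the log2 fold change was -0.96 with a standard error of 0.29 (edgeR adjusted p = 0.024). These levels rest on 28 to 38 counts per F0 library and 14 to 20 per F2 library. The call was lost with DESeq2 (adjusted p = 0.096) and held in 2 of 6 leave-one-out fits, each made with 1 library removed, those without F0 replicate 2 and without F2 replicate 3. In the 4 others the log2 fold change was -0.91 without F0 replicate 1, -0.89 without F0 replicate 3, -0.90 without F2 replicate 1 and -0.86 without F2 replicate 2, with adjusted p between 0.071 and 0.092.

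DDX60, a helicase that also aids RIG-I-like sensing, had a similar profile (ENSG00000137628, chromosome 4, 168216293 to 168318807, minus strand). Its level was 2.13, 1.94 and 2.37 CPM in F0 and 0.959, 0.974 and 1.59 CPM in F2. The populations did not overlap, but F2 replicate 3 lay well above the other F2 libraries. The log2 fold change was -0.86 with a standard error of 0.28 (edgeR adjusted p = 0.040). The call held in only 1 of 6 leave-one-out fits, the one without F2 replicate 3 (-1.14), and was lost in the others, with values from -0.93 without F0 replicate 2 to -0.73 without F2 replicate 1. It was also lost with DESeq2 (adjusted p = 0.14). On chromosome 4 as a whole, where DDX60 and HERC5 both lie, 13.0% of 492 tested genes fell and the median log2 fold change was -0.072. The part of this shift in either gene was not tested.

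IFI16, a nuclear sensor of DNA, moved the other way (ENSG00000163565, chromosome 1, 158999968 to 159055155, plus strand). Its level was 0.413, 0.666 and 0.592 CPM in F0 and 1.34, 1.36 and 1.53 CPM in F2. Every F2 library lay above every F0 library, and the log2 fold change was 1.33 with a standard error of 0.35 (edgeR adjusted p = 0.011), or 2.52-fold. The counts were few, 7, 11 and 10 in F0 and 21, 21 and 24 in F2. Of the 35 tested genes it was the 1 that passed the filter on low counts through the F2 libraries alone, so it could be tested only because it was higher there. It stayed past the threshold in 5 of 6 leave-one-out fits and was at 1.16 without F0 replicate 1 (adjusted p = 0.051).

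The classical RNA sensors did not pass the threshold. DDX58, which encodes RIG-I, was at 5.75 ± 0.892 CPM in F0 and 6.35 ± 0.758 in F2 (SD, n = 3 each), and IFIH1, which encodes MDA5, was at 1.88 ± 0.282 and 1.58 ± 0.630 CPM. EIF2AK2, which encodes the kinase PKR, was at 104 ± 5.25 CPM in F0 and 103 ± 3.53 in F2. With its many counts, the 95% interval of its log2 fold change ran only from -0.12 to 0.097. OAS3, which makes short oligoadenylates in response to double-stranded RNA, had a log2 fold change of -0.16 (interval -0.35 to 0.026, edgeR adjusted p = 0.24). OAS3 passed when scaled by library size alone (log2 fold change -0.25, edgeR adjusted p = 0.047).

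Among the antiviral effectors, 9 of 16 genes were tested, 2 fell, none rose at the adjusted threshold or at an unadjusted p under 0.05, and 7 did not pass. IFIT1 encodes a protein that binds RNA whose cap lacks the host's methylation (ENSG00000185745, chromosome 10, 89392546 to 89406486, plus strand). It was at 7.14, 5.33 and 5.33 CPM in F0 and at 3.32, 3.83 and 3.25 CPM in F2. The populations were separate, with F0 replicate 1 above the other F0 libraries. The log2 fold change was -0.77 with a standard error of 0.18 (edgeR adjusted p = 0.0041), it was -0.62 without F0 replicate 1, and the call held in all 6 leave-one-out fits and with DESeq2 (adjusted p = 0.012).

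IFITM2 belongs to the small membrane proteins that block fusion of viruses in endosomes (ENSG00000185201, chromosome 11, 307631 to 315272, plus strand). Its level was 24.1, 23.3 and 24.6 CPM in F0 and 15.3, 15.9 and 14.7 CPM in F2. This was the most precise of the falls, and the log2 fold change was -0.65 with a standard error of 0.086 (edgeR adjusted p = 2.3e-05) and a range of -0.68 to -0.62 over the 6 leave-one-out fits. The 3 IFITM genes lie side by side and share sequence. In GENCODE release 29, a transcript of IFITM2 runs through the whole of IFITM1 (313506 to 315272). Of the 101-base stretches in the last 500 bases of their coding transcripts, 65.7% for IFITM1, 31.7% for IFITM2 and 7.13% for IFITM3 also occur in another gene of the family. Reads that fit more than 1 gene or place are listed apart from gene counts, so the 0 counts of IFITM1 do not show that it was absent, and how reads were divided between IFITM1 and IFITM2 is uncertain. IFITM3 was at 9.70 ± 1.45 CPM in F0 and 8.10 ± 1.91 in F2, with an adjusted p of 0.29 from edgeR.

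**Figure D2:**
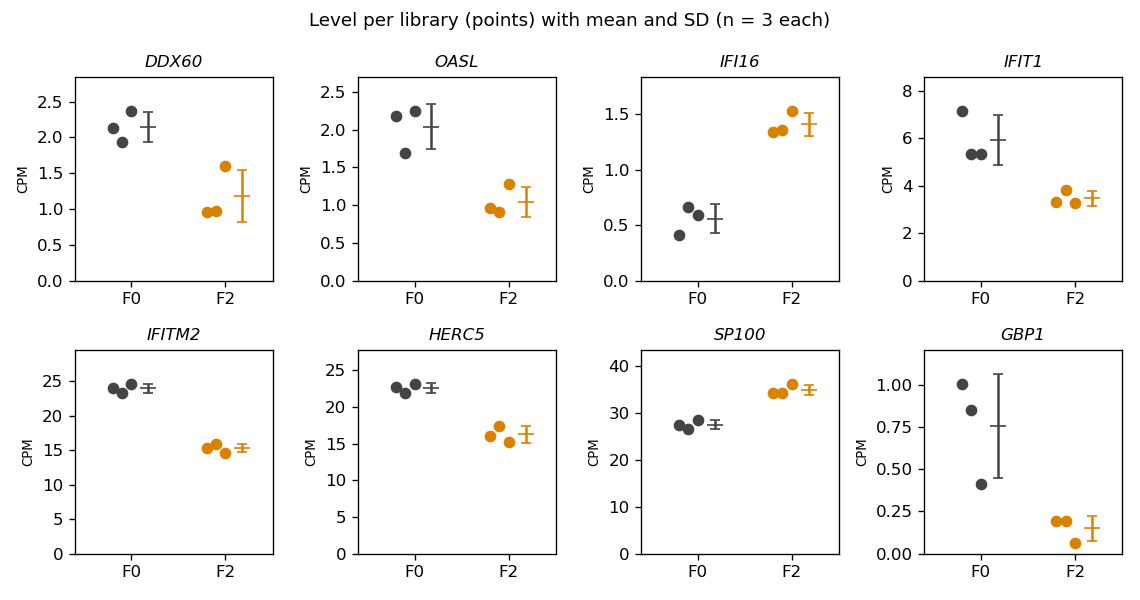
Level in CPM of the 7 genes past the threshold and of GBP1, which had too few counts to be tested. Points are single libraries, and the bars beside them are mean and SD (n = 3 per population); each panel starts at 0. In all 8 panels the F0 and F2 points are separate, with IFITM2, HERC5 and SP100 the tightest within a population.

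IFIT2 had a log2 fold change of -0.54 with F2 below F0 in every library, at 2.86 ± 0.396 and 1.97 ± 0.362 CPM, but did not pass the threshold (edgeR adjusted p = 0.12). MX1, a GTPase that traps viral nucleocapsids, was at 3.33 ± 0.954 CPM in F0 and 2.76 ± 0.528 in F2, with an interval of -0.76 to 0.22. ISG20, an exonuclease, had 0.22 (interval -0.041 to 0.49, edgeR adjusted p = 0.25). For both genes the F0 and F2 libraries overlapped. SAMD9, IFIT3 and IFIT5 had adjusted p values of 0.59, 0.86 and 0.91 from edgeR.

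GBP1, a GTPase that assembles on intracellular pathogens and is a classical target of interferon gamma, was not tested because of its low counts, and is named here after its values were seen. It had 17, 14 and 7 counts in F0 and 3, 3 and 1 in F2. The populations did not overlap, and the F2 counts lay at or under the floor of 3. The summed counts, scaled for library size, were 5.04-fold lower in F2, with an exact 95% interval of 2.22 to 13.4 that covers counting error only. With the filter on low counts removed, edgeR gave a log2 fold change of -2.27 and an adjusted p of 0.0065, and DESeq2 gave an unadjusted p of 0.0062 and no adjusted p. OAS1 had 5, 5 and 0 counts in F0 and 0 in all F2 libraries, and without the filter its adjusted p was 0.069. Among the other genes that were not tested, IFI27 had 23 counts in F0 and 20 in F2 over all libraries, and IFI44 had 12 and 23. OAS2, MX2, CMPK2, SAMD9L and IFI44L had at most 3 counts in every library, and DHX58 had at most 8.

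The group of ISG15 conjugation, ubiquitin ligases and ADP-ribosylation had the largest number of tested genes, 11 of 12, and 1 of them passed the threshold. ISG15 is a ubiquitin-like protein that is joined to other proteins by an activating enzyme, the conjugating enzyme UBE2L6 and the ligase HERC5, and removed by the protease USP18. HERC5 fell (ENSG00000138646, chromosome 4, 88457117 to 88506163, plus strand). Its level was 22.8, 21.9 and 23.1 CPM in F0 and 16.1, 17.5 and 15.2 CPM in F2. All F2 libraries lay below all F0 libraries, and the log2 fold change was -0.47 with a standard error of 0.089 (edgeR adjusted p = 8.3e-04), and the call held in all 6 leave-one-out fits.

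The rest of the ISG15 cycle did not pass the threshold. ISG15 itself was at 25.5 ± 1.67 CPM in F0 and 24.1 ± 1.04 in F2 (interval of the log2 fold change -0.25 to 0.092). UBE2L6 was at 7.99 ± 0.768 and 7.51 ± 1.09 CPM, and USP18 at 7.67 ± 1.24 and 6.75 ± 0.488 CPM. HERC6, the neighbor of HERC5, had a log2 fold change of -0.11 (interval -0.45 to 0.23). Whether HERC5 moved differently from these genes was not tested. TRIM25, a ubiquitin ligase that acts on RIG-I, was at 106 ± 4.04 CPM in F0 and 103 ± 4.96 in F2, with an interval of -0.15 to 0.073. The ADP-ribosyltransferase PARP14 was at 25.7 ± 1.11 and 27.1 ± 2.06 CPM. DTX3L and PARP9, which form a complex and whose genes overlap at their starts on opposite strands, had log2 fold changes of -0.033 and 0.25, with intervals that include 0.

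Of the transcription factors, neither passed the threshold with edgeR or DESeq2, and neither had an unadjusted p under 0.05 with edgeR. IRF1 was at 24.3, 24.2 and 24.3 CPM in F0 and 23.5, 18.2 and 22.4 CPM in F2. The F0 values were nearly equal and all F2 values lay below them, by a small amount in replicate 1 and by more in replicate 2. The log2 fold change was -0.18 with a standard error of 0.093 (edgeR adjusted p = 0.20), and it was -0.075 without F2 replicate 2. Like OAS3, it passed under library size alone (-0.27, edgeR adjusted p = 0.040). IRF7, the factor that amplifies type I interferon, was at 4.58 ± 0.752 and 4.49 ± 0.294 CPM.

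The 3 nuclear body genes all had higher means in F2, and 1 of them passed the threshold. PML and SP100 are the main scaffold proteins of PML nuclear bodies, where SP110 can also be found. SP100 (ENSG00000067066, chromosome 2, 230415942 to 230544090, plus strand) was at 27.5, 26.5 and 28.5 CPM in F0 and at 34.3, 34.2 and 36.2 CPM in F2. The populations were well apart, and the log2 fold change was 0.34 with a standard error of 0.072 (edgeR adjusted p = 0.0022) that ranged from 0.32 to 0.37 over the 6 leave-one-out fits and passed in all of them. Exons of SP100 overlap the pseudogene HMGB1P3 on its own strand and AC010149.1 on the other, so some of its reads could have been set apart as ambiguous. PML was at 22.2 ± 2.24 and 25.3 ± 1.28 CPM (edgeR adjusted p = 0.15), and SP110 at 9.71 ± 0.811 and 10.7 ± 0.466 CPM (edgeR adjusted p = 0.45). For PML and SP110 the F0 and F2 libraries overlapped, and the interval of SP110 ran from -0.10 to 0.38.

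Of the 7 other interferon-inducible genes 3 were tested, and none passed the adjusted threshold with edgeR, while 1, IFI6, had an unadjusted p under 0.05. IFI6 encodes a small membrane protein that has been linked to protection from cell death. It was at 23.2 ± 1.70 CPM in F0 and 27.1 ± 2.64 in F2, a log2 fold change of 0.23 (interval 0.043 to 0.41, edgeR adjusted p = 0.083). IFI35 was at 3.51 ± 0.292 and 3.62 ± 0.230 CPM. LGALS3BP, a secreted glycoprotein, had 0.29 with an interval of -0.24 to 0.82. XAF1, an antagonist of the apoptosis inhibitor XIAP, had 0 counts throughout.

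**Figure D3:**
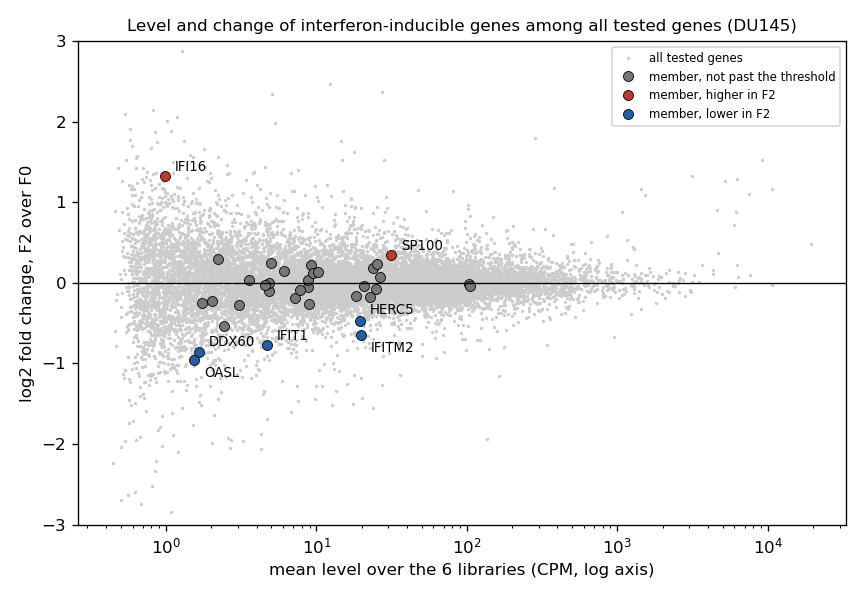
Mean level over the 6 DU145 libraries (CPM, log axis) against log2 fold change of F2 over F0, for all tested genes (gray dots) and the 35 tested interferon-inducible genes (circles). Genes of low level scatter more widely, and 3 genes lie beyond the vertical axis; OASL, DDX60 and IFI16 lie in that low range, and IFITM2, HERC5 and SP100 at 10 to 100 CPM.

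Precision followed the level of the gene. The median width of the 95% interval of the log2 fold change was 0.73 for the 21 genes between 1 and 10 CPM, 0.37 for the 11 between 10 and 100 CPM and 0.22 for the 2 above. Of the 21 genes between 1 and 10 CPM 3 passed the threshold, all of them lower, where 5.62% of all tested genes at that level fell. Of the 11 between 10 and 100 CPM 2 fell and 1 rose, where 10.1% and 10.5% of all genes at that level did. For the genes of low level, a difference of the size seen in HERC5 or SP100 could be missed.

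Position was not used in choosing the genes, and many of them lie next to each other. With a distance of at most 500 kb between neighbors, 26 of the 50 genes fell into 10 clusters, and in 4 clusters a gene passed the threshold. In each of these 4 clusters 1 gene passed. The IFIT cluster spans 137 kb of chromosome 10 (89283694 to 89421001) and was tested in full. Along the chromosome, the log2 fold changes were -0.54 for IFIT2, -0.048 for IFIT3, -0.77 for IFIT1 and 0.030 for IFIT5. The genes were thus unequal in their values, although the differences between them were not tested. The other clusters with a called gene were IFITM2, IFITM1, IFITM3 and IRF7 on chromosome 11, HERC6 and HERC5 on chromosome 4, and SP110 and SP100 on chromosome 2. No gene passed among PARP9, DTX3L and PARP14 on chromosome 3. OAS1, OAS3 and OAS2 on chromosome 12, SAMD9 and SAMD9L on chromosome 7, and MX2 and MX1 on chromosome 21 each had only 1 tested gene, and it did not pass. The clusters of IFI44L and IFI44 on chromosome 1 and of CMPK2 and RSAD2 on chromosome 2 had no tested gene, so neither could hold a call.

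**Figure D4:**
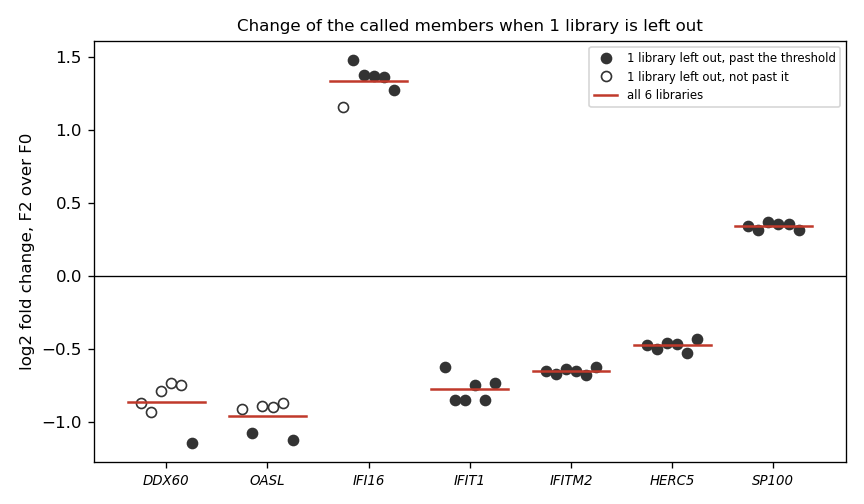
Log2 fold change of F2 over F0 for the 7 called genes with 1 of the 6 libraries left out (circles, from left to right F0 replicates 1 to 3 and F2 replicates 1 to 3) and with all libraries (red line). Filled circles are past the threshold. IFIT1, IFITM2, HERC5 and SP100 pass in all 6 fits, IFI16 in 5, OASL in 2 and DDX60 in 1.

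The calls differed in how well they held. Of the 7 called genes, 4 (IFIT1, IFITM2, HERC5 and SP100) were past the threshold in every one of the 6 leave-one-out fits (4 of 35), which was true of 9.29% of all tested genes. No gene of the 7 changed direction in any of these fits.

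The rest of the interferon pathway was followed through 34 further genes, of which 25 were tested, 4 fell and 2 rose. These were 24%, 16% and 8% of the 25 for all calls, falls and rises, against 18.2%, 8.67% and 9.49% of all tested genes. The ligands were hardly expressed, with IFNA1, IFNB1, IFNK, IFNG, IFNL2 and IFNL3 at 0 counts in all libraries and IFNL1 at no more than 1. IFNE was the 1 ligand tested, with 1, 4 and 10 counts in F0 and 11, 12 and 11 in F2, and it did not pass with edgeR (adjusted p = 0.11) but did with limma-voom (adjusted p = 0.046). Like IFI16, it entered the test through F2 alone, with 0 of 3 F0 libraries and all 3 F2 libraries over the filter, so neither p bears on it as a test of a difference. Of 6 receptor chains 3 fell, and these lie near each other on 1 chromosome. IL10RB, the chain that the lambda interferon receptor shares with that of IL-10, went from 40.7 ± 2.07 to 31.5 ± 0.375 CPM, and its log2 fold change was -0.37 (edgeR adjusted p = 7.8e-04). The paper's discussion states no change in the level of IL10RB, and does not cite these RNA counts for it. Its main figures show RT-PCR of this gene in PAIII, the rat line of the study, which is another measure in another species. IFNGR2 had -0.34 (edgeR adjusted p = 8.1e-04). IFNAR2 had -0.23 (edgeR adjusted p = 0.012), was at -0.20 without F0 replicate 2 and at -0.17 without F2 replicate 3, and passed in neither of these fits.

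These 3 chains and IFNAR1, which did not pass (log2 fold change 0.016), lie together on chromosome 21 from 33229901 to 33479348. IFNAR1 lies between IL10RB and IFNGR2, and the interval of its log2 fold change ran from -0.11 to 0.15. Whether IFNAR1 moved differently from its neighbors was not tested. Of 149 tested genes of that chromosome 12.8% fell, with a median log2 fold change of -0.086, and the part of this shift in the receptor genes was not tested. A joint transcript annotated as AP000295.1 shares 40.8% of the 3′ stretches of IL10RB and 42% of those of IFNAR2, so their counts are less certain than those of IFNGR2. IFNLR1, the chain specific to IL-28, was at 2.82 ± 0.504 CPM in F0 and 2.74 ± 0.224 in F2, with an interval of -0.49 to 0.40.

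The RNA of STAT3, which acts downstream of many cytokine receptors, fell. Its level was 270.0 ± 1.35 CPM in F0 and 231 ± 2.23 in F2, and its log2 fold change was -0.23 (edgeR adjusted p = 7.6e-04). The call held in all 6 leave-one-out fits. This is RNA of cells that were not being treated as far as the labels say. In cells given MSC CM, the paper reports more total and phosphorylated STAT3 protein in F2 than in F0 PAIII, and blots of DU145 alike. The PAIII blot values were scaled to each population's own start, so they do not compare levels at rest. In the paper's assay of STAT3 binding to DNA, DU145 differed from PAIII. There CM lowered the activity in F0 DU145 and left that of F2 DU145 unchanged, while it raised that of F2 PAIII. STAT2 was at 12.9 ± 1.22 and 15.5 ± 1.58 CPM (0.27, edgeR adjusted p = 0.0996), and it passed the threshold without F0 replicate 1 (0.35) and without F2 replicate 2 (0.35). IRF9 was low, with 4 to 14 counts per library, and 73.2% of its 3′ stretches are shared with an overlapping transcript, AL136295.5.

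The 2 rises, SOCS3 and PIAS1, were among 4 tested inhibitors of STAT signaling. The others, PTPN2 and PTPN6, had log2 fold changes of 0.013 and -0.026 and did not pass the threshold. SOCS1 had too few counts to be tested. SOCS3, a feedback inhibitor of JAK kinases that STAT3 itself can induce, went from 16.7 ± 1.21 to 22.1 ± 1.52 CPM, and its log2 fold change was 0.41 (edgeR adjusted p = 0.0039), and held in all 6 fits. PIAS1, which restrains STAT proteins on DNA, had 0.24 (edgeR adjusted p = 0.017) but was lost with library size alone (0.15) and without F0 replicate 1 (0.21), F2 replicate 1 (0.25) or F2 replicate 3 (0.23). The kinases JAK1, JAK2 and TYK2 and the sensing genes MAVS, TMEM173 (STING), MB21D1 (cGAS), TBK1 and IKBKE did not pass the threshold. MAVS did with library size alone (edgeR adjusted p = 0.010), and TMEM173 did with a replicate block (edgeR adjusted p = 0.046). ADAR, which edits double-stranded RNA, had a log2 fold change of -0.024.

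**Figure D5:**
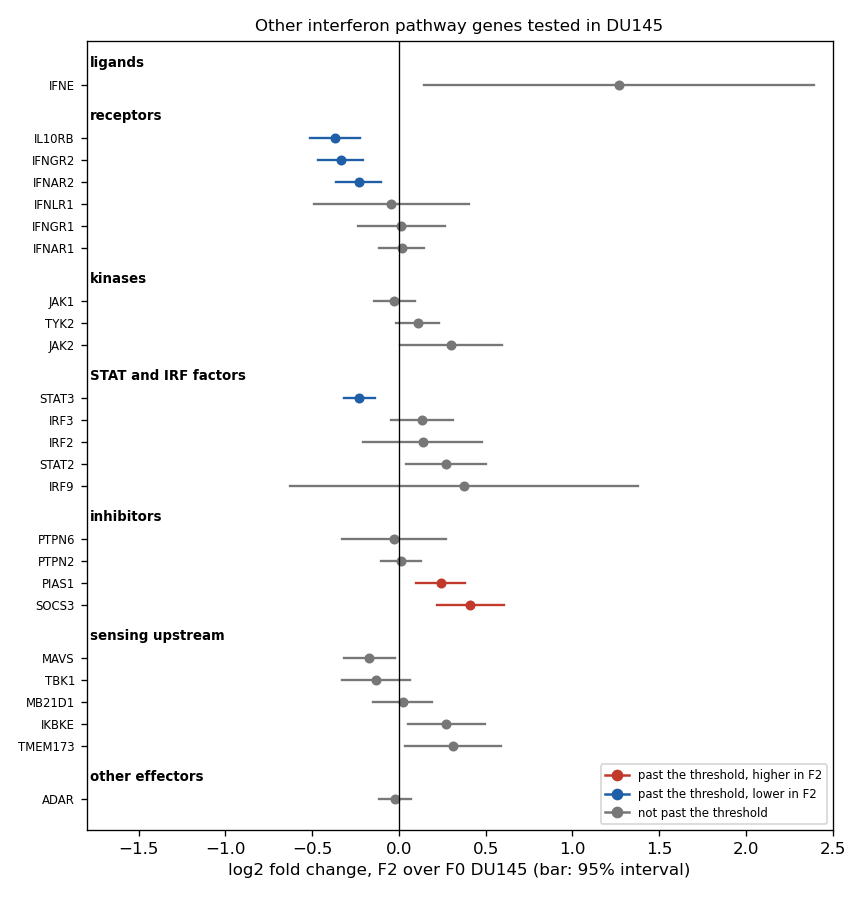
Log2 fold change of F2 over F0 for the 25 tested genes of the interferon pathway that are not on the list of induced genes, by role, from edgeR. Points are fitted values and bars 95% intervals. IL10RB, IFNGR2, IFNAR2 and STAT3 lie below 0 and SOCS3 and PIAS1 above it among the genes past the threshold.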

How the data were processed

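QuantSeq libraries of F0 and F2 DU145 were used. The authors deposited raw counts per Ensembl gene, without normalization. The submitters' processing notes name STAR 2.5.2a, HTSeq 0.6.0 and GRCh38; annotation and strand setting are not given in the sources used here. Columns were matched to samples by population and replicate number. Lines for reads outside genes (9.81% of uniquely placed reads in F0, 11.6% in F2), ambiguous reads and several alignments were left out, as were 92 spike-ins with 0 counts. The rat table was not used, because its identifiers could not be paired with gene names.

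Low counts were removed by filterByExpr (at least 10 counts, 15 in total). After TMM scaling, edgeR 4.0.16 under R 4.3.3 compared F2 with F0 by its quasi-likelihood test (two-sided, Benjamini-Hochberg over 14316 genes); limma 3.58.1 (voom) and DESeq2 1.42.0 were alternatives. CPM are TMM-normalized, and standard errors were derived from the F statistic. Positions came from GENCODE release 29 (56531 of 60107 identifiers matched). On simulated data (14316 genes, 200 of them changed), 42 of 66 tested genes changed by 0.5 on the log2 scale and 52 of 66 changed by 1 were recovered, and 7.14% of calls were false. Far fewer genes were changed there than the 2599 called in the real comparison, so these rates need not hold for it. No pair of libraries agreed within sampling noise (chi-square per gene at least 2.36). Human promoter sequence was not used here, so promoter motifs were not searched. Intervals and floors cover counting error only where so stated. Alternatives were other size factors, library size alone, other filters, a replicate block, leaving out 1 library, and leaving out mitochondrially encoded genes.

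Genes past the threshold and the 2 of highest level per group among the others were described in full, as were other pathway genes past the threshold and STAT2, IRF9 and IFNLR1. Values of other genes, such as IFIT2, MX1, DDX58 and GBP1, were added after they were seen. The list, its groups and the tests were chosen with earlier results of these data known. Some genes of the pathway and marker lists are not reported here.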

Additional observations from a re-analysis of the deposited data

How the results depend on the processing

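Of 388 values of single named genes under the alternatives, 356 kept their direction and their side of the threshold, 18 lost the call, 4 gained it and 10 changed sign, each of these 10 for a gene that was past the threshold in neither fit. With library size alone PARP14 was at -0.014 and IFI35 at -0.048. Leaving out 1 library gave EIF2AK2 -0.047 to 0.025, IRF7 -0.14 to 0.10, IFI35 -0.0082 to 0.11 and IFNLR1 -0.14 to 0.11. For the interferon-inducible genes, the number that rose (2) became 1 with at least 10 counts required in every library, which removed IFI16 from the test, and 1 with DESeq2, which gave IFI16 no adjusted p. The number that fell (5) became 3 with DESeq2, without OASL and DDX60. Scaling by library size alone moved the median log2 fold change of the tested genes to -0.13, with that of all genes at -0.092. Leaving out 1 library at a time gave 1 to 2 rises, 3 to 5 falls, a median of -0.068 to -0.024, 4 to 8 other pathway genes past the threshold and 1670 to 2621 genes in all, the lowest without F0 replicate 2; the lowest counts for the list, 1 rise and 3 falls, came without F0 replicate 1. Size factors by median ratio, limma-voom, no filter (6 falls, GBP1 added) and the fit without mitochondrially encoded genes gave counts close to the main ones. The labels share replicate numbers but say only that the samples are replicates, so the numbers were not taken as pairs. The deviations of same-numbered libraries correlated at 0.17, -0.039 and 0.17, and those of differently numbered ones at -0.20 to 0.066. Whether the numbers mark pairs was not tested. With a replicate block 2867 genes passed in place of 2599 and 7 pathway genes in place of 6 (TMEM173 added, edgeR adjusted p = 0.046). The list had the same 2 rises and 5 falls in number. Depth left 15 of 50 genes with too few counts to be tested.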
